A study of Mus musculus with 6 samples.

Results

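A set of 10 genes commonly read as marks of the epithelial or the mesenchymal state of a carcinoma was followed through subcutaneous Lewis lung carcinoma tumours grown in mice. One of them, Cdh1, is the epithelial gene of the set. The other 9 are mesenchymal: Cdh2, Vim and Fn1, which encode structural proteins, and Snai1, Snai2, Twist1, Twist2, Zeb1 and Zeb2, which encode transcription factors. They were picked by gene name, and all 10 were found among the 19288 genes of the count table, 1 row each.

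The tumours came from LLC1 cells, a line of Lewis lung carcinoma, implanted under the skin of beta-hCG transgenic mice. By the labels the hosts were offspring of CB57BL/6 females and beta-hCG transgenic FVB males, so every group carried the transgene and no library came from a non-transgenic host. There were 3 groups of 2 libraries: transgenic hosts, for which the labels name no surgery and no supplement, ovariectomized transgenic hosts given vehicle, and ovariectomized transgenic hosts given progesterone. Vehicle or progesterone was supplied over 28 days, and the tumours were collected 30 days after implantation. The sources used here do not state the age of the hosts, the promoter of the transgene or whether the 2 libraries of a group came from different animals. The p-values below therefore measure only the spread between these libraries. It was larger than sampling noise, but it need not be a spread between animals.

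E-cadherin, the product of Cdh1, holds epithelial cells together at adherens junctions, where it is tied to the actin skeleton through catenins. In an epithelial-mesenchymal transition, cells lose these contacts, gain N-cadherin (Cdh2), vimentin filaments (Vim) and fibronectin matrix (Fn1), and become more motile. Factors of the Snail, Twist and Zeb families drive this switch in embryos and in many carcinomas, and several of them repress Cdh1 directly through E-boxes, short sites of the form CANNTG. The same genes are active in fibroblasts, macrophages and other host cells of a tumour: Vim is made by most mesenchymal and blood cells, and Zeb2 by macrophages. In RNA from whole tumours, fewer cells of a type and less RNA per cell cannot be told apart.

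The E-box is the motif that ties these factors to each other and to Cdh1, so the 250 bases just before the annotated start of 3 of the factor genes are shown, 5′ to 3′ on the strand of the gene. They are from RefSeq on GRCm38.p6, at chr2:167537945-167538194 (+) for Snai1, chr12:33957421-33957670 (+) for Twist1 and chr1:91801211-91801460 (+) for Twist2. Capitals mark the CANNTG match.
Snai1: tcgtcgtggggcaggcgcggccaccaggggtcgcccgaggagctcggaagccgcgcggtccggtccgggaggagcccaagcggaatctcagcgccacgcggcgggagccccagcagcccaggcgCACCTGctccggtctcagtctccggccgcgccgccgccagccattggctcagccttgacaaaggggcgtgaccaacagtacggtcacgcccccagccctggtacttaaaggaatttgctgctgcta
Twist1: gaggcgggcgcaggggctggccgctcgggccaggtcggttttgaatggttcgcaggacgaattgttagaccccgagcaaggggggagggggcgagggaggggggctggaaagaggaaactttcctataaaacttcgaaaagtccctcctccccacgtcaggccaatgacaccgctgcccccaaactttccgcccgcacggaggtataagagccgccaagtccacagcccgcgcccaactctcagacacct
Twist2: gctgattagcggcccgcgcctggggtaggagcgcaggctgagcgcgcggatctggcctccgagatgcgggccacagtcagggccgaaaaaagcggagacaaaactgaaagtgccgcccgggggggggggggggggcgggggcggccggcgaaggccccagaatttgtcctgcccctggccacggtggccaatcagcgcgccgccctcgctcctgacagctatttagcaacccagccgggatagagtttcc
The Snai1 window held 1 CANNTG, and it was a CACCTG, the E-box variant bound by Snail and Zeb proteins. The Twist1 and Twist2 windows held 0, as did the Vim window and the Zeb2 windows. A CANNTG reads the same on both strands, every CACCTG on either strand is also a CANNTG, and 66.2% of the 32536 RefSeq windows of this length held the first and 17.3% the second. A window with 0 matches says only that these letters are not in these 250 bases. The RefSeq table matched 5 of the 10 genes.

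The paired factors are close relatives, so their messages were compared to see whether reads could be credited to the wrong one. Twist1 and Twist2 shared no 30-base stretch: 0 of the 1599 such windows of the longest coding transcript of Twist1 were found in that of Twist2. Their longest shared coding run was 23 bases, ctgcgcaagatcatccccacgct, from coding base 403 of Twist1 and 265 of Twist2. Snai1 and Snai2 shared 22 bases at most, atgccgcgctccttcctggtca, which is the start of both coding sequences. Zeb1 and Zeb2 shared 23 bases at most. Antisense genes are annotated across Fn1 (Apol7d), Twist2 (Gm29100), Zeb2 (Zeb2os) and Cdh2 (Gm15485), and none of these has a row in the table. Zeb1 is also overlapped on the opposite strand, by Gm10125 and Gm16147, and neither has a row. The library kit keeps strand, but the sources used here do not state the strand setting of the counting. Reads from a partner on the opposite strand therefore cannot be told from reads of these genes.

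Libraries held 19526775 to 30083925 counted reads, and 3 reads corresponded to 0.103 to 0.159 CPM, the count scaled to a fixed library size. All CPM values carry the TMM scaling of edgeR, and those per kilobase are named as such. Library 2 of the transgenic group and library 2 of the progesterone group stood apart from the rest. On the first principal component (31.5% of the variance) the former lay at 54.5 and the others between -32.7 and 23.2, and on the second (27.4%) the latter lay at -62.9 and the others between -0.677 and 22.3. No gene of the 13632 tested passed an adjusted p of 0.05 in any of the 3 comparisons by edgeR's quasi-likelihood test, and 759, 721 and 718 had an unadjusted p under 0.05 for vehicle against transgenic, progesterone against vehicle and progesterone against transgenic. By DESeq2 63, 77 and 47 genes were called in the same order, and none of the 10 genes was among them.

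All 10 genes were detected in every library and passed the filter on low counts, and their levels spanned more than 3 orders of magnitude. Levels of different genes were compared as CPM per kilobase of the longest protein-coding transcript. Vim led with a mean of 1883 (range over the 6 libraries 1672 to 2066), followed by Fn1 with 548 (191 to 1048). The factors lay below: Twist1 at 47.1, Twist2 at 27.9, Snai1 at 22.8, Zeb1 at 22.7, Zeb2 at 16.2 and Snai2 at 6.66. Cdh2 came next at 6.06 (3.40 to 9.70). Cdh1 was last at 0.521 (0.383 to 0.778).

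Several neighbours in this order kept apart in all 6 libraries. Vim was 1.85 to 8.74 times Fn1, and Cdh2 was 5.18 to 18.3 times Cdh1, per kilobase within a library. The ranges also did not overlap between Fn1 and Twist1 or between Zeb2 and Snai2. Twist1 was above Twist2, and Zeb1 above Zeb2, in 6 of 6 libraries, although the ranges overlapped. Other steps of the order were not settled by these libraries: Twist2 was above Snai1 in 4 of 6, Snai1 above Zeb1 in 3 of 6, and Snai2 above Cdh2 in 4 of 6. With the merged length of all annotated exons in place of transcript length, Snai1 and Twist2 changed places and the other 8 kept theirs.

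**Figure D1:**
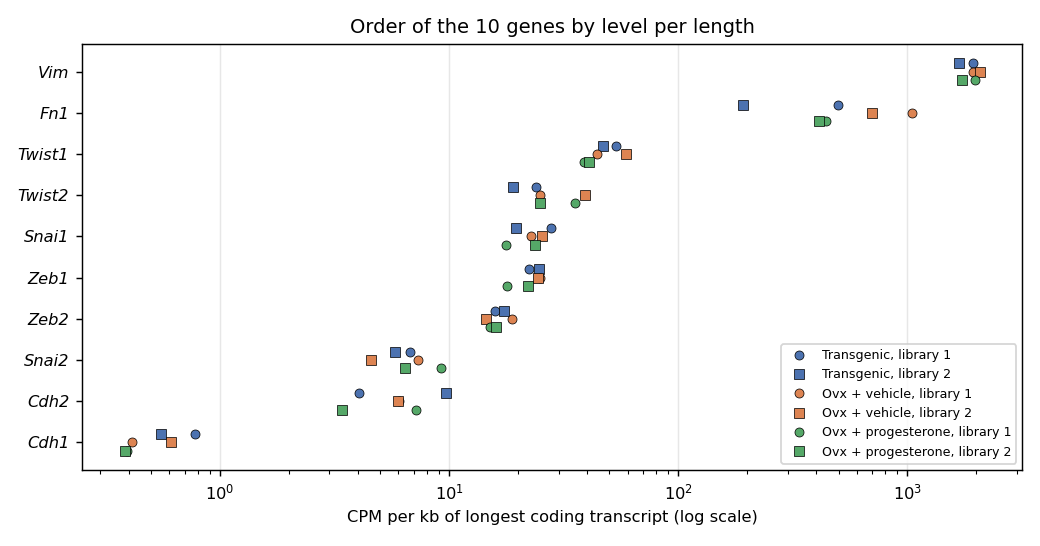
Level of each of the 10 genes in the 6 libraries as CPM per kilobase of longest protein-coding transcript, on a log axis, with genes in the order of their means and points coloured by group. Vim and Fn1 lie above the 6 factors, and Cdh1 is lowest, with all of its libraries between 0.383 and 0.778.

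The epithelial side was sparse. Cdh1 (ENSMUSG00000000303; GRCm38 chr8:106603351-106670246, +) had 93 and 58 reads in transgenic, 53 and 51 in vehicle and 45 and 41 in progesterone libraries. In CPM these were 3.44 and 2.44, 1.82 and 2.70, and 1.74 and 1.70. The progesterone libraries were the lowest pair and did not overlap with either other group, and the transgenic and vehicle libraries overlapped. The nearest progesterone and vehicle values were 1.74 and 1.82 CPM, from 45 and 53 reads. That gap is within the counting error of such low counts. The log2 difference was -0.39 ± 0.47 (SE) for vehicle against transgenic, -0.39 ± 0.48 for progesterone against vehicle and -0.78 ± 0.48 for progesterone against transgenic, with adjusted p of 0.969, 0.999 and 0.938 by edgeR. The 95% interval of the last ran from -1.90 to 0.35, an interval that takes in 0.

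Other genes of epithelial junctions ranged widely, from the counting floor to levels far above Cdh1. Of 23 junction and keratin genes in the table, 14 passed the filter on low counts, 12 were under 1 CPM in all 6 libraries and 8 were at 1 CPM or more in all 6. Epcam, an adhesion protein of most carcinomas, was between 0.0530 and 0.222 CPM. Desmoplakin (Dsp) did not exceed 0.0741 CPM, and the tight-junction gene Cldn7 did not exceed 0.0827 CPM. In the middle lay the tight-junction genes Ocln, at 6.57 to 19.6 CPM, and F11r, at 6.22 to 18.1 CPM, with Pkp3 and Jup, whose values follow. The highest were the simple keratins Krt8, at 135 to 393 CPM, and Krt18, at 125 to 370 CPM, and the scaffold gene Tjp1, at 166 to 204 CPM. Krt8 and Krt18 were highest in library 2 of the transgenic group. Of 5 lung epithelial markers in the table, Napsa, at 1.64 to 4.48 CPM, and Ager, at 2.57 to 5.56 CPM, passed the filter, and the surfactant and secretory genes Sftpc and Scgb1a1 were at 0.0827 CPM or less in all 6 libraries. Of the genes in this and the next paragraphs, Epcam, Dsp, Cldn7, Ocln, F11r, Krt18, Tjp1, Sftpc, Scgb1a1 and Esrp1 were chosen after their values were seen. Markers of skin keratinocytes summed to 1.39 to 4.14 CPM.

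No gene of the epithelial lists was called by edgeR in any comparison. For vehicle against transgenic, 6 junction and keratin genes had a positive log2 difference and 8 a negative one, with a median of -0.16, and for progesterone against vehicle the split was 6 and 8 with a median of -0.06; in each, 1 gene had an unadjusted p under 0.05. Junction genes with the smallest p were Pkp3 and Jup. Plakophilin 3 (Pkp3), a desmosome protein, was at 10.1 and 7.92 CPM in transgenic, 19.8 and 12.9 in vehicle and 18.0 and 11.4 in progesterone libraries, a log2 difference of 0.86 for vehicle against transgenic (adjusted p 0.871, edgeR). Plakoglobin (Jup), which binds cadherin tails, was at 9.15 and 11.0, 11.5 and 10.3, and 3.98 and 7.07 CPM, a log2 difference of -0.98 for progesterone against vehicle (adjusted p 0.939, edgeR). Both pairs of groups were without overlap, and neither difference passed the test.

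Factors that hold the epithelial state were uneven in level. Of 14 genes on that list, 7 passed the filter and 8 were under 1 CPM in all 6 libraries. The median log2 difference of the 7 was -0.39 for vehicle against transgenic (3 positive, 4 negative) and -0.15 for progesterone against vehicle (2 positive, 5 negative), with 1 and 0 genes at an unadjusted p under 0.05. Cdh1 is one of the 7, and the first median, -0.39, is its own value. That median therefore adds nothing to the value of Cdh1. Klf5, a zinc-finger factor of epithelia, was highest on the list at 18.1 to 38.6 CPM, and its relative Klf4 was at 9.78 to 32.7 CPM. Per kilobase their means of 7.58 and 6.78 CPM lay above those of Snai2 (6.66) and Cdh2 (6.06). Esrp1, a splicing regulator of epithelial cells, was listed at 0 in 4 of 6 libraries. Foxa2, a factor of endoderm and lung epithelium, was at 3.33 and 8.13 CPM in transgenic, 1.54 and 2.23 in vehicle and 3.67 and 2.90 in progesterone libraries. Its log2 difference for vehicle against transgenic was -1.61 (adjusted p 0.827, edgeR), and -0.82 without library 2 of the transgenic group.

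Fn1 was the gene of the set that varied most. Fn1 (ENSMUSG00000026193; chr1:71585520-71653200, −), which encodes the fibronectin of matrix and plasma, was at 4133 and 1590.5 CPM in transgenic, 8713 and 5847 in vehicle and 3651 and 3401 in progesterone libraries. Both vehicle libraries lay above all 4 others, and the highest library had 5.48 times the lowest. Vehicle was 2.54-fold above transgenic (log2 difference 1.35 ± 0.42, 95% interval 0.35 to 2.35), with an adjusted p of 0.819 by edgeR. Progesterone was lower than vehicle by a log2 difference of -1.05 ± 0.42 (-2.04 to -0.05), with an adjusted p of 0.939 by edgeR. Progesterone and transgenic libraries overlapped, with a log2 difference of 0.30 ± 0.42 and an adjusted p of 0.994 by edgeR.

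By p-value Fn1 ranked 252 of 13632 genes for vehicle against transgenic and 600 for progesterone against vehicle, and neither difference passed the correction. The size depended on single libraries. Against transgenic, vehicle stood at 0.82 without library 2 of the transgenic group and 2.20 without library 1, and progesterone at -0.23 and 1.15. Progesterone against vehicle ran from -1.31 to -0.74 over the libraries left out. Over the alternatives the adjusted p of Fn1 ran from 0.103 (DESeq2) to 1 for vehicle against transgenic and from 0.212 (no filter on low counts) to 1 for progesterone against vehicle. The comparisons with vehicle share the vehicle libraries, so a high value there enters both.

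Markers of hypoxia moved with Fn1. The 9 genes of that list summed to 4513 and 3402 CPM in transgenic, 5954 and 5551 in vehicle and 4063 and 3378 in progesterone libraries, and 9 of 9 had a positive log2 difference for vehicle against transgenic (median 0.67) and 9 of 9 a negative one for progesterone against vehicle (median -1.01). None was called by edgeR, 5 and 7 had an unadjusted p under 0.05, and the first median was 1.27 without library 1 of the transgenic group. Fibroblast markers summed to 1578 and 377, 1655 and 2767, and 1735 and 1760 CPM. The low value was in library 2 of the transgenic group, where Fn1 was lowest, and none of the 11 markers was at 0 there. The list was split in that library. Thy1 (19.3 CPM against 8.41 in library 1), Mfap5 (2.57 against 0.222), Dpp4 and Clec3b were higher than in library 1, and the other markers were lower. Thy1 was chosen after its values were seen. Macrophage markers ran the other way in that library, at 2698 CPM against 1278 in its partner. Other lists also differed between these libraries.

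Cell cycle genes ran opposite to Fn1. The 10 genes summed to 1717 and 2333.5 CPM in transgenic, 1037.5 and 1232 in vehicle and 1444 and 1689 in progesterone libraries, so both vehicle libraries were lowest. For vehicle against transgenic 10 of 10 were negative (median -0.86), and for progesterone against vehicle 10 of 10 were positive (median 0.50). None was called by edgeR, and 10 and 5 had an unadjusted p under 0.05. T and NK cell markers, low in all libraries, summed to 2.44 and 12.9, 1.99 and 1.59, and 6.18 and 4.43 CPM. Of the 10 markers 7 passed the filter on low counts, and none of these was highest in a vehicle library. In the vehicle libraries Cd4 and Cd8a had 5 and 0 reads each. Genes this low pass the filter mainly through the groups where they are high, so the signs of their log2 differences were not read. The part of hypoxia, of the cell cycle and of these cell types in the Fn1 result was not tested.

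Vim hardly varied. Vim (ENSMUSG00000026728; chr2:13573927-13582826, +), the main intermediate filament of mesenchymal cells, was at 4223 and 3667 CPM in transgenic, 4257.5 and 4532 in vehicle and 4319.9 and 3783 in progesterone libraries. The highest library had 1.24 times the lowest. Vehicle lay just above transgenic without overlap, by a log2 difference of 0.16 ± 0.17 (-0.24 to 0.55; adjusted p 0.967, edgeR), and the other differences were -0.12 and 0.04. In the comparisons with vehicle the 95% intervals of Vim and Fn1 overlapped. Against transgenic, vehicle gave -0.24 to 0.55 for Vim and 0.35 to 2.35 for Fn1. For progesterone against vehicle the 2 intervals were -0.51 to 0.28 and -2.04 to -0.05. A difference between the 2 genes was not tested.

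Cdh2 varied between the libraries of a group, and no difference between groups was settled. Cdh2 (ENSMUSG00000024304; chr18:16588877-16809246, −), the N-cadherin gene, was at 19.5 and 47.0 CPM in transgenic, 29.3 and 28.9 in vehicle and 34.8 and 16.5 in progesterone libraries. The vehicle libraries were nearly equal, and each other group had one library above and one below them. Log2 differences were -0.19 ± 0.47, -0.18 ± 0.47 and -0.37 ± 0.47 for vehicle against transgenic, progesterone against vehicle and progesterone against transgenic. The sign of the log2 difference turned with the library left out: from -0.69 to 0.58, from -0.83 to 0.26 and from -1.01 to 0.40.

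**Figure D2:**
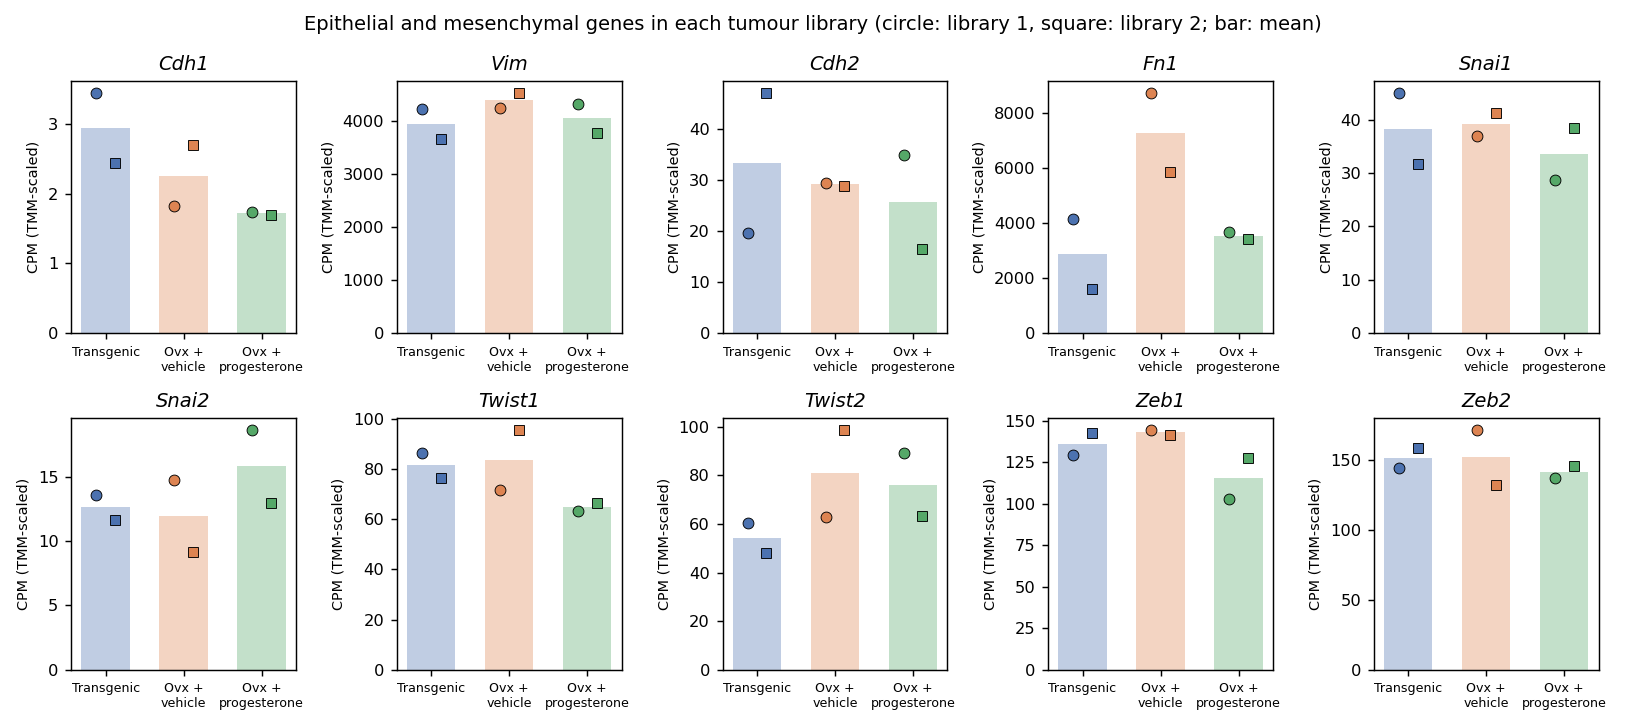
CPM of each of the 10 genes in every library, 1 panel per gene with its own axis from 0; bars are group means, circles are library 1 and squares library 2. Fn1 is highest in both vehicle libraries (8713 and 5847 CPM), Vim is nearly level, and the Cdh2 libraries of the transgenic and progesterone groups straddle those of the vehicle group.

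The Snail genes, zinc-finger repressors that bind E-boxes, showed no order of the groups. Snai1 (ENSMUSG00000042821; chr2:167538195-167542814, +) was at 45.0 and 31.7 CPM in transgenic, 37.0 and 41.2 in vehicle and 28.7 and 38.4 in progesterone libraries. Snai2 (ENSMUSG00000022676; chr16:14705852-14709385, +) was at 13.6 and 11.7, 14.8 and 9.17, and 18.7 and 13.0 CPM. For both genes every pair of groups overlapped. Log2 differences lay between -0.22 and 0.03 for Snai1 and between -0.08 and 0.40 for Snai2. Per kilobase Snai1 exceeded Snai2 in all 6 libraries, by log2 ratios of 0.94 to 2.47.

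The Twist genes, helix-loop-helix factors that bind E-boxes as dimers, differed in their pattern. Twist1 (ENSMUSG00000035799; chr12:33957671-33959829, +) was at 86.7 and 76.5 CPM in transgenic, 71.6 and 95.8 in vehicle and 63.3 and 66.4 in progesterone libraries. Both progesterone libraries were below the other 4, with a log2 difference of -0.37 ± 0.18 against vehicle (adjusted p 0.944, edgeR) and -0.33 ± 0.18 against transgenic (adjusted p 0.916, edgeR). Twist2 (ENSMUSG00000007805; chr1:91801461-91848028, +) was at 60.3 and 48.0, 62.8 and 98.8, and 89.4 and 63.1 CPM. Here both transgenic libraries were below the other 4, with a log2 difference of 0.58 ± 0.27 for vehicle against transgenic (adjusted p 0.883, edgeR) and 0.49 ± 0.27 for progesterone against transgenic (adjusted p 0.916, edgeR).

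The ratio of the Twist genes within a library does not depend on how libraries are scaled. The log2 ratio of Twist1 to Twist2 per kilobase was 1.16 and 1.30 in transgenic, 0.82 and 0.59 in vehicle and 0.14 and 0.71 in progesterone libraries. Both transgenic values were above all 4 values of the ovariectomized hosts, and the vehicle and progesterone values overlapped. The differences in this ratio were not tested.

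The Zeb genes, large zinc-finger and homeobox repressors, were steady. Zeb1 (ENSMUSG00000024238; chr18:5591860-5775467, +) was at 129.5 and 143 CPM in transgenic, 145 and 142 in vehicle and 103 and 128 in progesterone libraries. The progesterone libraries were the lowest 2, with a log2 difference of -0.31 ± 0.16 against vehicle (-0.69 to 0.07; adjusted p 0.945, edgeR). Zeb2 (ENSMUSG00000026872; chr2:44983632-45117395, −) was at 144 and 158, 172 and 132, and 137 and 145 CPM, and every pair of groups overlapped. Its highest library had 1.30 times its lowest, and that of Zeb1 1.40 times. Zeb1 exceeded Zeb2 per kilobase in every library, by log2 ratios of 0.24 to 0.76.

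The counts of the 10 genes were read against those of all genes. In vehicle against transgenic, 0 of 10 were called by edgeR (0% of all genes tested), 1 of 10, Fn1, had an unadjusted p under 0.05 (5.57% of all genes), and 3 of 10, Fn1, Vim and Twist2, had groups that did not overlap, all higher in vehicle (35.6% of all genes in either direction, 17.9% higher). For progesterone against vehicle, 0 of 10 were called by edgeR (0%), and again only Fn1 had an unadjusted p under 0.05 (5.29%). Groups did not overlap for 4 of 10, Cdh1, Fn1, Twist1 and Zeb1, all lower in progesterone (36.2% in either direction, 17.8% lower). The gap of Cdh1 there, 1.74 against 1.82 CPM, was within counting error. For progesterone against transgenic, 0 of 10 were called (0%), 0 of 10 had an unadjusted p under 0.05 (5.27%), and 4 of 10 did not overlap: Twist2 was higher and Cdh1, Twist1 and Zeb1 were lower in progesterone (29% in either direction).

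The direction of the log2 differences was uneven in one comparison. For progesterone against vehicle 9 of 10 were negative, all but Snai2, with a median of -0.20, beside 51.1% of all genes positive and a median of 0.01. Several of these values were small. With a library left out Cdh2, Twist2 and Zeb2 turned positive (up to 0.26, 0.28 and 0.09), and Vim and Snai1 reached -0.02 and -0.03. All 10 values rest on the same vehicle libraries, so their signs are not independent. Vehicle against transgenic gave 7 positive and 3 negative values, with a median of 0.04 beside -0.01 over all genes. For progesterone against transgenic 4 were positive and 6 negative, with a median of -0.15 beside 0.01. Among the 6 factors alone, 5 were positive for vehicle against transgenic (median 0.04) and 5 negative for progesterone against vehicle (median -0.16). In progesterone against vehicle Cdh1 had -0.39 and 8 of the 9 mesenchymal genes were negative as well, with a median of -0.18. In vehicle against transgenic Cdh1 also had -0.39, while 7 of the 9 mesenchymal genes were positive, with a median of 0.04. In progesterone against transgenic Cdh1 had -0.78, and 4 of the 9 were positive, with a median of -0.10.

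**Figure D3:**
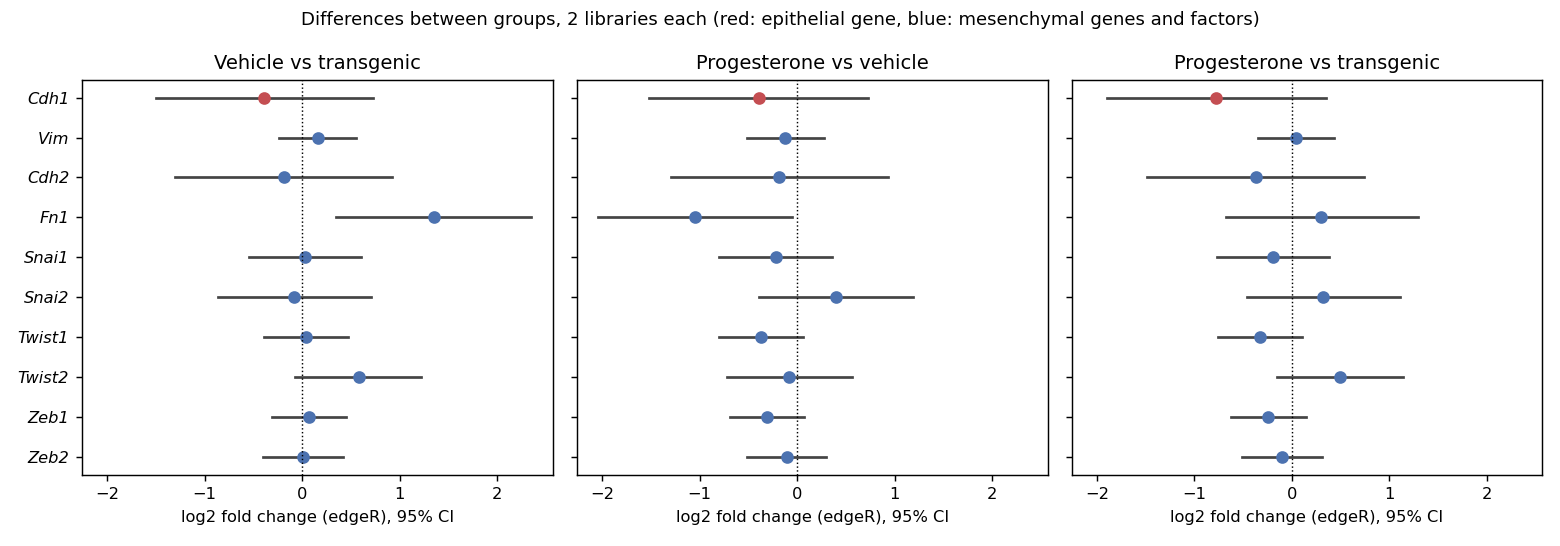
Log2 difference of each gene with its 95% interval from the edgeR fit in the 3 comparisons, with Cdh1 in red and the 9 mesenchymal genes in blue. Nearly all intervals cross 0; the exceptions are Fn1 for vehicle against transgenic (0.35 to 2.35) and for progesterone against vehicle (-2.04 to -0.05).

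Because a ratio of 2 genes in 1 library is free of library scaling, the mesenchymal structural genes were also expressed relative to Cdh1, per kilobase and on the log2 scale. Vim to Cdh1 was 11.24 and 11.52 in transgenic, 12.15 and 11.67 in vehicle and 12.23 and 12.07 in progesterone libraries. The transgenic libraries were the lowest pair, with a mean of 11.38 ± 0.19 (SD, n = 2) against 11.91 ± 0.34 and 12.15 ± 0.11. Fn1 to Cdh1 was 9.29 and 8.39, 11.26 and 10.12, and 10.07 and 9.99, with both transgenic libraries lowest. The Vim and Fn1 ratios share the Cdh1 count, so their orders are not independent. Cdh2 to Cdh1 was 2.35 and 4.09, 3.83 and 3.24, and 4.14 and 3.09, and all groups overlapped. Each of these ratios carries the counting error of Cdh1, which rests on 41 to 93 reads a library.

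Genes around the set were read from lists drawn up by role. Of 18 fibronectin receptors and assembly genes that passed the filter, 0 were called by edgeR and 2 and 4 had an unadjusted p under 0.05 in the comparisons with vehicle. In them 11 had a positive log2 difference for vehicle against transgenic (median 0.20) and 13 a negative one for progesterone against vehicle (median -0.28). The integrin beta 3 gene Itgb3, a receptor subunit for fibronectin and vitronectin, was at 35.5 and 37.9 CPM in transgenic, 57.1 and 51.1 in vehicle and 17.7 and 22.6 in progesterone libraries. No group overlapped another, and the order was the vehicle libraries first and the progesterone libraries last. The log2 difference for progesterone against vehicle was -1.42, with an adjusted p of 0.668 by edgeR. Over the alternatives this adjusted p ran from 3.63e-07 (DESeq2) to 1, and the difference from -1.61 to -1.26 with a library left out.

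Other receptor genes had smaller differences. Itgb1, the beta subunit of the main fibronectin receptor, was at 1147.5 and 1209 CPM in transgenic, 1462 and 1303 in vehicle and 924 and 1025 in progesterone libraries, a log2 difference of -0.50 for progesterone against vehicle (adjusted p 0.932, edgeR). Fermt2, which activates integrins from inside the cell, was at 166 and 147, 237 and 196, and 110 and 147 CPM, a log2 difference of -0.75 (adjusted p 0.932, edgeR). These genes were highest in both vehicle libraries, and none passed the test by edgeR. They were named for the smallest p in the comparisons with vehicle, so their likeness to Fn1 comes in part from that choice. Of the 18 genes that passed the filter, 7 were highest in library 1 of the vehicle group and 2 in library 2. The rest were highest in a library of another group.

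The TGF-beta pathway is a main inducer of Snai1, Zeb1 and Fn1 in many cells. Of 26 genes, 0 were called by edgeR (2 and 1 had an unadjusted p under 0.05 in the comparisons with vehicle), 18 were positive for vehicle against transgenic (median 0.16), and 20 were negative for progesterone against vehicle (median -0.25). Smad7, the feedback inhibitor of the pathway, was at 46.5 and 69.7 CPM in transgenic, 62.8 and 58.8 in vehicle and 32.5 and 43.9 in progesterone libraries (log2 difference -0.67 for progesterone against vehicle, adjusted p 0.939, edgeR). Bmp2 was at 9.15 and 17.3, 2.92 and 6.68, and 6.72 and 4.26 CPM (log2 difference -1.47 for vehicle against transgenic, adjusted p 0.827, edgeR). Bmp7 had a log2 difference of -3.51 for vehicle against transgenic, but this came from library 2 of the transgenic group, at 18.2 CPM against 0.778 in library 1, and without it the difference was 0.08.

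Other factors and partners of the transition gave a like picture. Of 23 that passed the filter, 0 were called by edgeR (2 and 0 with an unadjusted p under 0.05), 15 were positive for vehicle against transgenic (median 0.13) and 16 negative for progesterone against vehicle (median -0.16). Prrx1, a homeobox factor of mesenchyme, was at 392 and 273 CPM in transgenic, 468 and 504 in vehicle and 356 and 370 in progesterone libraries. Its log2 difference for vehicle against transgenic was 0.55 (adjusted p 0.837, edgeR). The level of Prrx1 was above that of the 6 factors in every library on the CPM scale, which does not allow for gene length. Id1, a target of BMP signals that ties up helix-loop-helix factors, had the opposite sign. It was at 12.6 and 11.1, 6.76 and 7.84, and 8.54 and 8.19 CPM. Its log2 difference for vehicle against transgenic was -0.70 (adjusted p 0.865, edgeR). Prrx1 and Id1 were the 2 genes of this list with an unadjusted p under 0.05 in that comparison.

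Catenins and cadherins other than the 2 described were counted apart. Of 15 genes 0 were called by edgeR (2 and 0 with an unadjusted p under 0.05), 10 were negative for vehicle against transgenic (median -0.15) and 12 for progesterone against vehicle (median -0.18). Nectin1, an adhesion protein of adherens junctions, was at 27.8 and 25.8 CPM in transgenic, 15.4 and 20.5 in vehicle and 18.3 and 16.3 in progesterone libraries. Cdh11, a cadherin of mesenchymal cells, was at 0.889 and 4.38, 1.06 and 0.954, and 0.811 and 15.6 CPM. Its log2 difference for progesterone against vehicle was 3.01, and -0.31 without library 2 of the progesterone group.

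Mesenchymal matrix genes and enzymes did not follow Fn1 as a group. Of 23 genes 0 were called by edgeR (2 and 6 with an unadjusted p under 0.05), and 13 were positive and 10 negative in each of the comparisons with vehicle, with medians of 0.06 and 0.09. The second median was -0.35 without library 2 of the progesterone group. Col1a2, a chain of type I collagen, was at 10.5 and 107 CPM in transgenic, 14.3 and 9.96 in vehicle and 32.2 and 1082 in progesterone libraries, with the highest value in that library. Mmp3, an enzyme that cuts fibronectin and other matrix proteins, was at 1137 and 213, 2089 and 2363, and 370 and 197 CPM. Its log2 difference was 1.72 for vehicle against transgenic and -2.97 for progesterone against vehicle (adjusted p 0.861 and 0.932, edgeR), and both vehicle libraries lay above the other 4. The first was 3.38 without library 1 of the transgenic group and 0.97 without library 2. With no filter on low counts the second passed the test (adjusted p 0.00529, edgeR).

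Vim belongs to the intermediate filaments, of which 10 others passed the filter. For vehicle against transgenic 9 of these 10 were negative (median -0.25), with 0 called by edgeR and 1 at an unadjusted p under 0.05. Without library 2 of the transgenic group the median was 0.01. Lmnb1, a lamin of the nuclear envelope, was at 119 and 285 CPM in transgenic, 87.8 and 103 in vehicle and 115 and 121 in progesterone libraries, a log2 difference of -1.08 that was -0.31 without library 2 of the transgenic group. Vim differed by 0.16 in the same comparison.

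The list medians moved with single libraries. For vehicle against transgenic, leaving out library 2 of the transgenic group gave 0.05 for the junction and keratin genes, 0.10 for the catenins and cadherins, 0.33 for the fibronectin receptors and -0.02 for the other factors, and leaving out library 2 of the vehicle group gave 0.03 for the TGF-beta genes. In progesterone against vehicle, the junction and keratin median was 0.20 without library 1 of the progesterone group and -0.29 without library 2, and that of the epithelial factors 0.11 and -0.37. Without library 1 of the vehicle group the median was -0.11 for the receptors and -0.05 for the other factors, and without library 1 of the progesterone group it was -0.13 for the TGF-beta genes. In this comparison the medians of the receptors, the TGF-beta genes and the other factors were thus negative with any library left out. The same held for the catenins and cadherins (-0.38 to -0.19) and for the hypoxia list (-1.05 to -0.96).

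**Figure D4:**
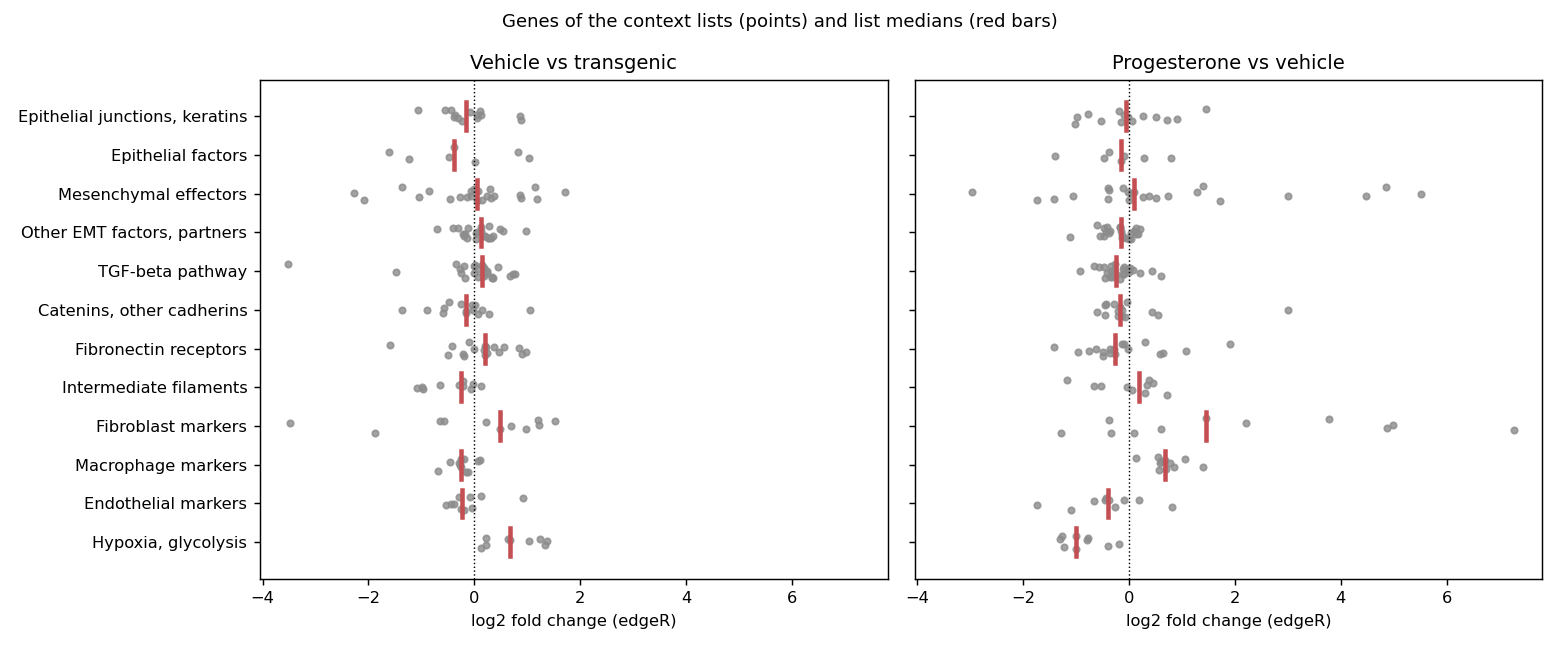
Log2 difference of every gene that passed the filter in 12 lists, for vehicle against transgenic and for progesterone against vehicle, with the median of each list as a red bar. The hypoxia list lies above 0 in the first comparison (median 0.67) and below it in the second (median -1.01). Lists around the epithelial-mesenchymal genes have medians from -0.39 (epithelial factors) to 0.20 (fibronectin receptors), both in the first comparison.

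Host cell markers were set beside the 10 genes because fibroblasts and macrophages make several of them. Library 2 of the progesterone group had the highest mean log2 CPM of 11 fibroblast markers, 6.49 against 3.41 to 4.31 in the others. It was the highest library for 6 of the 11, among them Mfap5 (37.2 CPM against 2.57 or less) and Clec3b (22.0 against 0.674 or less). The more abundant Dcn (617 CPM), Lum (298), Pdgfra (272) and Dpt (163) were not highest there, and the summed level of the list, at 1760.3 CPM, was below the 2767 of library 2 of the vehicle group. Dcn, Lum, Pdgfra and Dpt were chosen after their values were seen. None of the 10 genes was highest in that library, and Cdh1 and Cdh2 were lowest there. Among the fibroblast markers 8 of 11 were positive for progesterone against vehicle, with a median of 1.45 that was -0.05 without that library. Mfap5 and Dpp4 were at 0 in library 2 of the vehicle group.

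Macrophage markers were higher in both progesterone libraries than in the vehicle libraries. They summed to 1558 and 1857 CPM in vehicle and 2943 and 2524 in progesterone libraries, and 11 of 11 had a positive log2 difference (median 0.68), with 0 called by edgeR and 4 at an unadjusted p under 0.05. Csf1r, the receptor that keeps macrophages alive, was at 81.2 and 89.5 CPM in vehicle and 135 and 140 in progesterone libraries. Zeb2, which macrophages make, was at 172 and 132 and at 137 and 145 CPM in the same libraries and did not follow. Endothelial markers summed to 305 and 344, 313 and 303, and 135 and 304 CPM, and 8 of 10 were negative for progesterone against vehicle (median -0.40, and 0.09 without library 1 of the progesterone group). The part of these cells in the levels of the 10 genes was not tested.

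The genes most like a member over the 6 libraries were sought among 9304 genes with a mean of at least 10 CPM, by Pearson's r of log2 CPM, as a description with libraries and scaling in common. For Fn1 they were Bnip3 (0.989), Pdia5 (0.984) and Nfkbiz (0.984), and 52 genes had r of at least 0.95. Bnip3, a gene of the hypoxia list, was at 176 and 103 CPM in transgenic, 311 and 260 in vehicle and 166 and 162 in progesterone libraries, which is the order of the Fn1 libraries. For Cdh2 they were Agpat4 (0.996), Ap3s1 (0.994) and Lrrc75a (0.994), with 44 at 0.95 or more. For Cdh1 they were Zfp623 (0.996), Vti1b (0.990) and Mgat2 (0.989), for Vim Rnf126 (0.981), Mxra8 (0.980) and Mcrip1 (0.979), and for Zeb2 Arg1 (0.974), Fads1 (0.968) and Nek9 (0.968). Snai2 had no gene at 0.95 or above; its closest were Rel (0.948), Trappc10 (0.946) and Rhod (0.936).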

How the data were processed

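Tumour RNA was sequenced in 6 libraries, 2 in each of 3 groups, after mRNA isolation and with a strand-keeping kit, per the labels' protocols. The deposited table holds raw counts of reads per gene. The submitters' processing notes name GRCm38.p6, HISAT2, HTSeq and DESeq. Versions and strand setting were not given in the sources used here. Of 19288 gene IDs, 19284 were found in GENCODE vM21 (GRCm38), which gave positions and transcript lengths.

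Counts were tested in R 4.3.3 with edgeR 4.0.16 (filterByExpr, TMM scaling, quasi-likelihood test, 1 mean per group over all 6 libraries, 3 residual degrees of freedom, common biological coefficient of variation 0.295), with Benjamini-Hochberg adjustment over 13632 genes and a threshold of 0.05. The code was tested on simulated data. Libraries of a group differed beyond sampling noise (chi-square per degree of freedom 38.1 to 94.2), so all were kept as separate. Alternatives were DESeq2 1.42.0, limma-voom (limma 3.58.1), other scaling, other filters, fits of 2 groups, a replicate block and each library left out. The gene set and lists were chosen with earlier results of these data known. All 10 genes are named, and other genes are drawn from the up to 3 of each list with the smallest p in the comparisons with vehicle and at least 1 CPM in some group, or from the 3 most correlated with a member; those chosen after their values were seen are named as such.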

Additional observations from a re-analysis of the deposited data

How the results depend on the processing

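None of the 10 genes was called in any comparison under any alternative run, and the lowest adjusted p among them was 0.103 (Fn1, vehicle against transgenic, DESeq2). Of 390 values of these genes under alternatives, 370 kept their direction and 20 turned. Some genes of the lists did pass the threshold of 0.05 under some alternative for progesterone against vehicle. Among them were Itgb3, Mmp3, Col1a2, Mfap5, Dpp4 and Clec3b. Of these, Col1a2, Mfap5, Dpp4 and Clec3b were highest in library 2 of the progesterone group. The count of all genes called was 0 with edgeR, limma-voom, DESeq2 size factors, a filter of 1 CPM, fits of 2 groups and each library left out. For vehicle against transgenic, progesterone against vehicle and progesterone against transgenic it was 12, 92 and 28 with no filter on low counts, and 63, 77 and 47 with DESeq2; the cause was not tested.

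Turned signs were small or came from single libraries. For vehicle against transgenic, Zeb2 was -0.00281 with limma-voom, and with a library left out log2 differences ran from -0.19 to 0.18 for Zeb2, -0.46 to 0.22 for Snai2, -0.69 to 0.58 for Cdh2, -0.20 to 0.30 for Snai1, -0.19 to 0.24 for Twist1, -4.47 to 0.08 for Bmp7 and -1.10 to 0.01 for Nes. For progesterone against vehicle they ran from -0.28 to 0.09 for Zeb2, -0.38 to 0.28 for Twist2, -0.83 to 0.26 for Cdh2 and -0.31 to 3.94 for Cdh11. For progesterone against transgenic they ran from -0.43 to 0.08 for Snai1, -0.06 to 0.14 for Vim, -1.01 to 0.40 for Cdh2 and -0.23 to 1.15 for Fn1.

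With merged exon length, an alternative chosen after seeing the data, log2 ratios to Cdh1 were 10.31, 10.85 and 11.08 for Vim in transgenic, vehicle and progesterone, 2.85 for Cdh2 in vehicle and 9.58 for Fn1 in progesterone, because the lengths differ. With the replicate number as a block 0 genes were called in each comparison, and Fn1 was at 1.44, -0.99 and 0.45. Same-numbered libraries did not deviate together (correlations 0.08, -0.17 and -0.13), so the numbers were not taken to pair them. With 2 libraries a group, the 95% interval of Cdh1 for vehicle against transgenic ran from -1.50 to 0.73. It took in changes of either sign, so the direction for Cdh1 was not settled. The smallest change that could be detected was not worked out.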
